A study of Mus musculus with 6 samples.

Results

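Semaphorins, plexins and neuropilins form a guidance system first described in growing axons and also used by bone cells, and they were examined here together with slits, Robo receptors and netrins in cultured mouse osteoblast-lineage cells. The members were chosen by name, as every gene whose symbol begins with Sema3 to Sema7 or with Plxna, Plxnb, Plxnc or Plxnd, plus Nrp1, Nrp2, Slit1, Slit2, Slit3, Robo1, Robo2, Ntn1 and Ntn4. Of 39 such genes in the RefSeq annotation 35 were measured, out of 17298 named genes on the arrays. They comprise 19 semaphorins, 7 plexins, 2 neuropilins, 3 slits, 2 Robo receptors and 2 netrins. No array feature was matched to Sema4c, Plxnb2, Plxnb3 or the plexin antisense gene Plxna4os1, which were not analysed here.

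The arrays, 6 in all and of NimbleGen's 1-colour type, carried RNA of MC3T3-E1 cells, a clonal pre-osteoblast line from newborn mouse calvaria, at passages 5 to 12. The undifferentiated group held 3 cultures and the differentiated group 3 cultures that had spent 15 days in medium with 50 µg/mL ascorbic acid and, as a phosphate source, 10 mM glycerol-2-phosphate, and the labels call the samples biological triplicates. Every culture, in both groups, received 100 nM of the vitamin D hormone 1,25(OH)2D3 during 24 h, and vehicle-treated cultures were not analysed here. The comparison therefore shows how the guidance genes differed with differentiation under the hormone, and gives no response to it.

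Values are log2 of the authors' RMA expression value, a normalized intensity of usually 9 probes per gene, so that a difference of 1 is a doubling. A control feature of 6131 random probes read 6.59 to 6.81 on this scale and marks background. Of the osteoblast-lineage markers, the collagen gene Col1a1 lay at 15.76 to 15.95 and the lineage transcription factor gene Runx2 at 11.88 to 12.17 on all arrays, whereas Ibsp, the bone sialoprotein gene, lay close to the random probes at 6.53 to 7.19. Alpl, the alkaline phosphatase gene of mineralizing osteoblasts, rose from between 9.09 and 9.38 to between 12.87 and 12.98 (limma, adjusted p = 6.79e-08). Of 9 such lineage markers 4 rose at an adjusted p under 0.05, Alpl, Dmp1, Bglap and Sp7, none fell and 5 did not pass. Spp1 went the other way without passing, from between 14.25 and 14.68 to between 14.17 and 14.24. Its groups did not overlap (log2 difference -0.32, limma, adjusted p = 0.132). The array of undifferentiated replicate 3 was set apart within its group, with Pearson's r across features of 0.979 to 0.986 to replicates 1 and 2, against 0.994 between those. Its array number starts like those of the differentiated arrays, while replicates 1 and 2 share another start. Per the file headers, image date separated the groups completely, so image date and differentiation cannot be told apart.

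Semaphorins are extracellular signals that share a sema domain. Those of class 3 are secreted, those of classes 4 to 6 span the membrane, and Sema7a is held by a lipid anchor. Plexins are their receptors and act on small GTPases, and most class 3 members need a neuropilin to hold the ligand, with Sema3e, which binds Plxnd1 directly, as the known exception. In mouse bone, Sema3a from osteoblast-lineage cells favours bone formation and restrains osteoclasts, and Sema4d from osteoclasts restrains osteoblasts through Plxnb1. Slits signal through Robo receptors, and netrins through Dcc, Neo1 and Unc5 family receptors.

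In differentiated cells the secreted semaphorins Sema3e and Sema3c fell, by a measured 14.72-fold and 4.07-fold. The fold of Sema3c is limited by background, and that of Sema3e, not far above background in differentiated cells, may be. The receptor genes Plxnb1, Plxnd1 and Plxnc1 rose 1.43-fold to 1.62-fold. Slit2 fell and its relative Slit3 rose, calls that held in 15 and 11 of 17 other settings. The neuropilins and the class A plexins, the usual receptors of class 3 semaphorins, did not pass the test. At an adjusted p under 0.05 (limma with Benjamini-Hochberg adjustment over all 17298 named genes), 6 of the 35 guidance genes rose, 4 fell and 25 did not pass. These 10 are 28.6% of the measured members, against 19.5% of all named genes called in either direction, 8.58% higher and 10.9% lower. At 2-fold or more, 2 members passed, which is 5.71% of them against 3.57% of all named genes. The 3 undifferentiated and 3 differentiated arrays did not overlap for 18 members, 51.4% against 40.1% of all named genes. The median log2 difference, differentiated minus undifferentiated, was 0.22 over the members and 0.08 over all named genes.

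**Figure D1:**
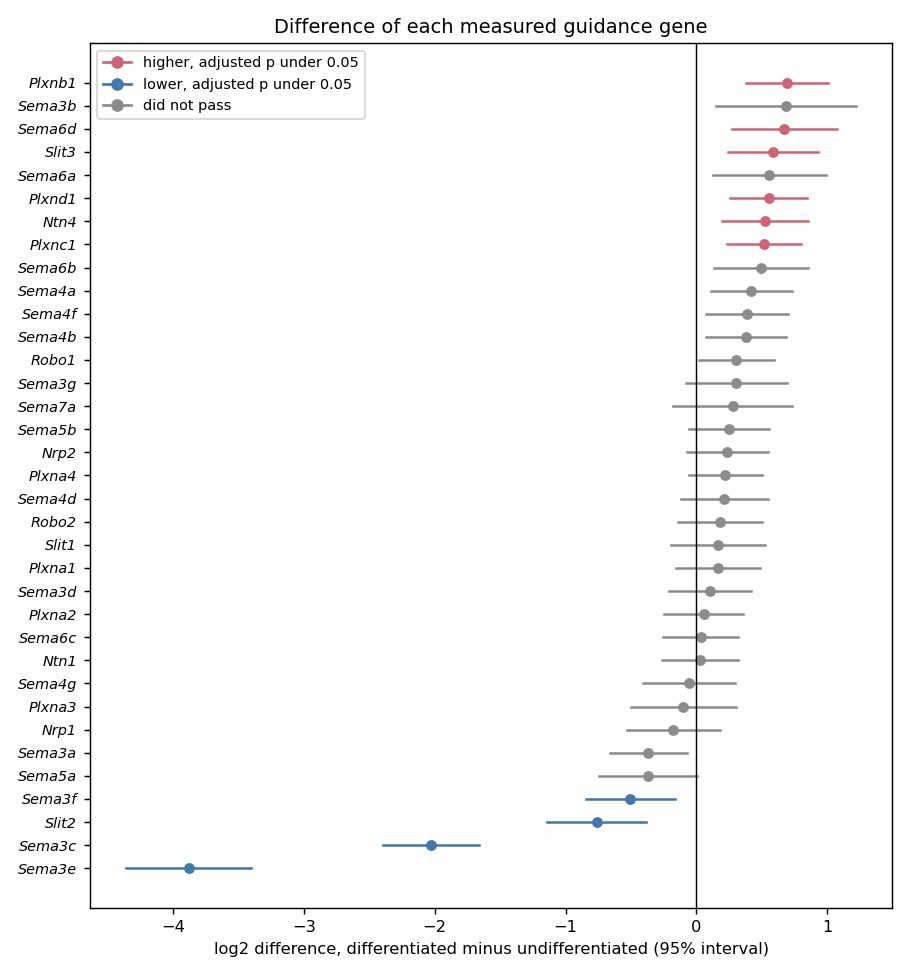
The log2 difference (differentiated minus undifferentiated) of each of the 35 measured guidance genes on the horizontal axis, with its 95% interval from limma. Genes that were higher or lower at an adjusted p under 0.05 are coloured and the other 25 are grey. Sema3e at -3.88 and Sema3c at -2.03 stand far to the left, and no point reaches 1 on the right.

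Promoter windows are shown for the 3 genes whose calls held under every setting tried, Sema3e, Sema3c and Plxnb1, and for Plxnd1, the receptor of Sema3e. Each runs from 250 bases before to 50 after the RefSeq start of the gene (assembly GRCm38.p6), read 5′ to 3′ on the gene's strand. Sema3e lies at chr5:14025026-14025325 on the plus strand, Sema3c at chr5:17574566-17574865 on the plus strand, Plxnd1 at chr6:115994956-115995255 on the minus strand and Plxnb1 at chr9:109095186-109095485 on the plus strand. Capitals mark matches, on either strand, to any of 7 short motifs, namely the GC box GGGCGG, the TATA motif TATAAA, the nuclear receptor half-sites AGGTCA and GGTTCA, the AP-1 motif TGACTCA, the Runx motif TGTGGT and the E-box CACGTG.
Sema3e: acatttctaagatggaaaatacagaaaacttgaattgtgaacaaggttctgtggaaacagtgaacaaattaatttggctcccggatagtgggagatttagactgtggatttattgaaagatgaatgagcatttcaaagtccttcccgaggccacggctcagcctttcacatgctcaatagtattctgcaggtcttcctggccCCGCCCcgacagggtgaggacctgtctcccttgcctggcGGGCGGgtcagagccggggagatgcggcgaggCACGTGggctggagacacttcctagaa
Sema3c: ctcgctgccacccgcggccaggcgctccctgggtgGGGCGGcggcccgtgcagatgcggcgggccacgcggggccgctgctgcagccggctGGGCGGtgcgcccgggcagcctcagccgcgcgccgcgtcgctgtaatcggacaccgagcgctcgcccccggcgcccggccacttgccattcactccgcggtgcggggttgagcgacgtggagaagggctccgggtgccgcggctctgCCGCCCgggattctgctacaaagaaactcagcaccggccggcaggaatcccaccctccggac
Plxnd1: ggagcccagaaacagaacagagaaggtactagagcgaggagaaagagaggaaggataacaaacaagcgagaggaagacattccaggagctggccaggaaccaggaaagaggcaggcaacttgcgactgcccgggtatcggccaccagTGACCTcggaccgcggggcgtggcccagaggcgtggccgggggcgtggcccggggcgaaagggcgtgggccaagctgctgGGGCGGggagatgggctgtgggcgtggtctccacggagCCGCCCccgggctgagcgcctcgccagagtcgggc
Plxnb1: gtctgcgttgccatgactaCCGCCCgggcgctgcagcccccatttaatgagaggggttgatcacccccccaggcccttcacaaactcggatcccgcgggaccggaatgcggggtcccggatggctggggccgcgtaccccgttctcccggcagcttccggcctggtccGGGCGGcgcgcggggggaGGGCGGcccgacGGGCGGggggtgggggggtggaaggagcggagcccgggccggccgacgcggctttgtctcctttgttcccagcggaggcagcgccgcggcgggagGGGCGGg

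The window of Sema3e had 50.7% G and C and 11 CG pairs, that of Sema3c 75.7% and 42, and those of Plxnd1 and Plxnb1 67.0% and 74.7%, against a median of 52.7% over 32851 windows. All 4 windows held the GC box, with 2 matches for Sema3e, 3 for Sema3c, 2 for Plxnd1 and 5 for Plxnb1. It is held by 35.7% of all windows and by 26 of the 39 windows of measured members. Sema3e also held the E-box at position 24 (counted from 1 at the start site, with the base before it -1). That motif is in 7.2% of all windows and in 4 of the 39 member windows. The half-site AGGTCA was found in Plxnd1 alone of these 4, at position -103, in 7 of the 39 member windows and in 16.3% of all windows. The 4 windows held no match to the other 4 motifs. The TATA motif occurs in 13.6% of all windows, GGTTCA in 10.4%, the AP-1 motif in 5.2% and the Runx motif in 16.8%. A match is a description of the sequence only. Windows were given for 28 of the 35 measured members, 39 windows in all, with a median of 62.7% G and C. Sema3e and Sema3c, the members that fell most, thus had windows of quite different base composition.

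Of the 7 measured class 3 semaphorins, 3 fell, none rose and 4 did not pass, where 10.9% of all named genes fell, and 1 of the 3, Sema3f, kept its call in only 10 of 17 other settings. Sema3e, a secreted repellent best known from vessel and axon patterning, read 11.72, 11.66 and 11.12 on undifferentiated replicates 1, 2 and 3 and 7.27, 8.05 and 7.55 on differentiated replicates 1, 2 and 3. Every differentiated array lay more than 3 log2 units below every undifferentiated one, and still above the random probes. On differentiated replicate 1 it was nearest to them, at 7.27 against 6.81, so background may limit the measured fold. The difference of -3.88 ± 0.22 (SE, n = 3 arrays per group, adjusted p = 1.46e-06) placed Sema3e as the 4th largest decrease of the 17298 genes. It was -3.50 against undifferentiated replicate 3 alone, the undifferentiated array whose number starts like the differentiated ones, and -4.09 to -3.50 over all settings tried. In bulk cultures such as these, fewer cells expressing a gene and less RNA per cell cannot be told apart.

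Sema3c, a secreted ligand of neuropilin and Plxnd1 complexes in heart and vessel development, read 8.68, 8.54 and 8.81 in undifferentiated cells and 6.34, 6.66 and 6.95 in differentiated cells. On differentiated replicates 1 and 2 the gene was at or below that array's random probes, which read 6.81 and 6.71, and on replicate 3 it was barely above them. The difference was -2.03 ± 0.17 (SE, n = 3 per group, adjusted p = 2.58e-05), and ranged from -2.17 to -1.85 over the settings. The differentiated level sat at background, which limits the measured fold. Sema3f, a ligand of Nrp2, read 9.57, 9.68 and 9.30 against 8.90, 8.90 and 9.23, groups that only just failed to meet. Its difference of -0.50 ± 0.15 passed narrowly (adjusted p = 0.042) and did not pass without undifferentiated replicate 1 (0.0924) or 2 (0.163), nor without differentiated replicate 1 (0.16), 2 (0.135) or 3 (0.0527). With the replicate number as a block its adjusted p was 0.0601, and with the array number start in the model the difference was -0.29 (adjusted p = 0.307).

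Sema3a, the class 3 member with the best known role in bone, read 11.04, 11.03 and 11.08 in undifferentiated cells and 10.58, 10.88 and 10.58 in differentiated cells. The groups did not overlap, yet the difference of -0.37 (95% interval -0.66 to -0.07) had an adjusted p of 0.0757. Of 17 other settings it passed in 2, which were the omission of undifferentiated replicate 3 (adjusted p = 0.0445) and array weights (0.0205). With that replicate omitted, array number start and group coincide. Sema3b read 11.39, 10.94 and 10.27 against 11.60, 11.71 and 11.34, so the undifferentiated arrays spread over more than the difference of 0.69 (adjusted p = 0.0701). Against undifferentiated replicate 3 alone, the lowest of them, the difference was 1.29 with the array number start in the model (adjusted p = 0.000248), and without that replicate it was 0.38 (adjusted p = 0.0524). Without undifferentiated replicate 1 the gene passed as well (difference 0.95, adjusted p = 0.0126), as it did after quantile normalization (0.0298) and after cyclic loess (0.0387), with the replicate block (0.0249) and with array weights (0.00426). Sema3g differed by 0.31 with overlapping groups (adjusted p = 0.226). Sema3d lay at or below the random probes on all 6 arrays, between 6.14 and 6.60, and no fold is given.

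**Figure D2:**
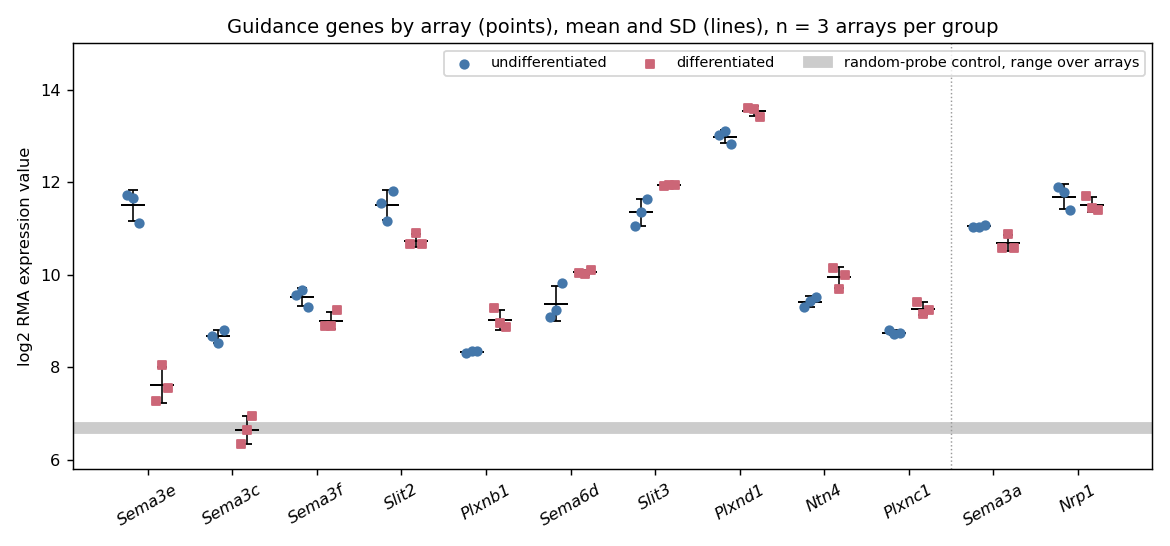
Log2 RMA expression value (vertical axis) of the 10 guidance genes that passed, and to the right of the dotted line of Sema3a and Nrp1, which did not, on each of 3 undifferentiated (circles) and 3 differentiated (squares) arrays. Black lines give the group mean and SD, and the grey band the range of the random-probe control, 6.59 to 6.81. Differentiated values of Sema3c fall on the band, while those of Sema3e stay above it.

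Sema3e and Sema3c lie in 1 stretch of the genome with class 3 members that did not pass. Sema3d, Sema3a, Sema3e and Sema3c follow each other in this order on mouse chromosome 5, with no other protein-coding gene between Sema3d and Sema3a, 3 between Sema3a and Sema3e, and 15 between Sema3e and Sema3c. Of the genes in between, 7 were measured, of which 2 fell and none rose, a number too small to set against the 10.9% of all named genes that fell. Pclo, a presynaptic scaffold gene, Cacna2d1, a calcium channel subunit gene, and Hgf, a growth factor gene, differed by 0.03, -0.08 and 0.07 without passing. Speer4d at -0.80 (95% interval -1.52 to -0.08, adjusted p = 0.105) and Speer3 at -0.27 (adjusted p = 0.229) did not pass either. The 2 that fell were Gm9758 (difference -0.89, adjusted p = 0.00303) and Speer4f1 (-0.77, adjusted p = 0.0214), and the Speer genes belong to a multi-copy family, whose copies may share probes, which makes it uncertain which copy was measured. These genes were looked at after the values of Sema3e and Sema3c were known.

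**Figure D3:**
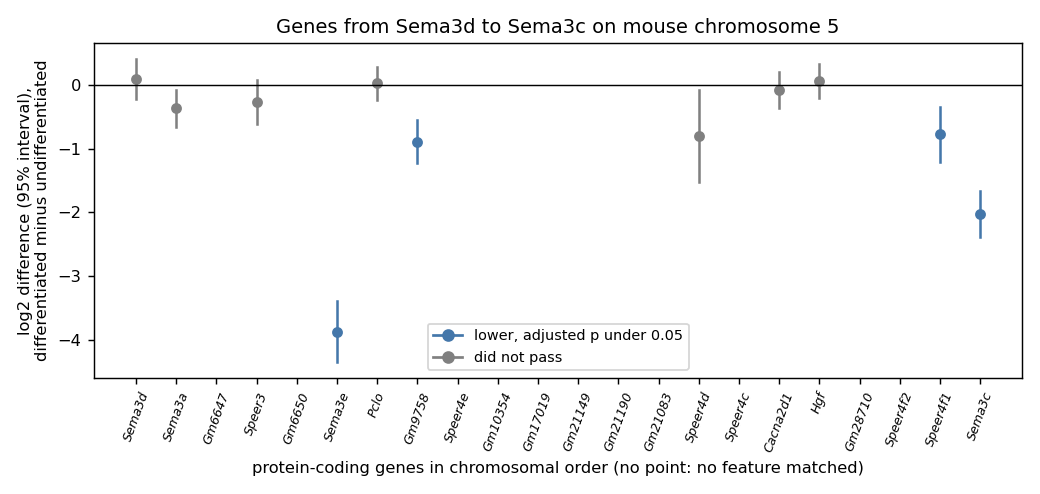
Log2 difference (differentiated minus undifferentiated, with 95% interval) of the protein-coding genes from Sema3d to Sema3c in their order on mouse chromosome 5, blue where lower at an adjusted p under 0.05. Sema3e and Sema3c stand below the measured genes between them, whose differences run from -0.89 to 0.07, and Sema3d at the left end lies at background in both groups.

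Of the membrane-bound semaphorins, which are 5 class 4, 2 class 5 and 4 class 6 genes and Sema7a, 1 rose and none fell, where 8.58% of all named genes rose and 10.9% fell. Sema6d, a ligand of Plxna1 in heart development and immune cells, read 9.09, 9.24 and 9.81 in undifferentiated cells and 10.04, 10.01 and 10.11 in differentiated cells. All differentiated arrays were above all undifferentiated ones, with undifferentiated replicate 3 nearest to them. The difference was 0.67 ± 0.18 (SE, n = 3 per group, adjusted p = 0.0267), and it was 0.24 with the array number start in the model (adjusted p = 0.357). Leaving out any array other than undifferentiated replicate 3 ended the call (adjusted p = 0.0757 and 0.116 without undifferentiated replicates 1 and 2, and 0.103, 0.0691 and 0.0956 without differentiated replicates 1, 2 and 3). Sema6d has 4 features, for different RefSeq transcripts, which did not all move alike. Tested over all 42586 features, 2 rose, by 0.72 (adjusted p = 0.00783) and 0.67 (adjusted p = 0.0273), and the other 2 differed by 0.31 (adjusted p = 0.12) and -0.05 (adjusted p = 0.854). With the mean of its features the gene did not pass (difference 0.41, adjusted p = 0.0769).

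Several other membrane-bound members came close to the threshold without passing. Sema6b, a transmembrane ligand of class A plexins, read 11.90, 11.75 and 12.35 against 12.58, 12.44 and 12.48 (difference 0.50, adjusted p = 0.0546), and Sema6a 7.71, 8.17 and 8.58 against 8.68, 8.68 and 8.78 (difference 0.56, adjusted p = 0.0668). In both, undifferentiated replicate 3 was the undifferentiated array nearest to the differentiated ones, and the groups did not overlap. Sema4a, Sema4b and Sema4f, with non-overlapping groups as well, differed by 0.42 (adjusted p = 0.0568), 0.38 (0.0771) and 0.39 (0.0756). Sema4d, the ligand of Plxnb1, read 8.75, 9.22 and 9.16 against 9.18, 9.34 and 9.26 and overlapped between the groups (difference 0.21, 95% interval -0.12 to 0.55, adjusted p = 0.326). Sema7a, a ligand of Plxnc1 and of integrins, read 9.18, 8.74 and 9.63 against 9.65, 9.30 and 9.44 (difference 0.28, 95% interval -0.18 to 0.73, adjusted p = 0.348), and undifferentiated replicate 3 was as high as the differentiated arrays. Sema5a differed by -0.37 (adjusted p = 0.139), Sema5b by 0.25 (0.215), Sema4g by -0.06 (0.823) and Sema6c by 0.03 (0.876), all with overlapping groups.

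The number of calls depended on undifferentiated replicate 3. Without it 21 of the 35 guidance genes passed, 15 higher and 6 lower, and these included all 10 called with it. That share of 60.0% stands beside 45.0% of all named genes in the same setting. Without replicate 3 the undifferentiated arrays all have 1 array number start and the differentiated arrays another. Array number start and differentiation can therefore not be told apart in that setting. The members gained were Sema3a, Sema3g, Sema4a, Sema4b, Sema4f, Sema5a, Sema6a, Sema6b, Sema7a, Slit1 and Robo1. In 25 of the 35 members (71.4%) replicate 3 lay on the differentiated side of the mean of replicates 1 and 2, as it did for 73.1% of all named genes. Replicate 3 and the differentiated mean are both measured from that same mean, which favours agreement beforehand. These shares alone therefore do not show a lean of replicate 3.

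Among the receptors, 3 of 7 measured plexins rose, none fell and 4 did not pass, where 8.58% of all named genes rose. Plxnb1, the receptor of Sema4d, read 8.30, 8.36 and 8.35 in undifferentiated cells and 9.28, 8.95 and 8.86 in differentiated cells. The undifferentiated arrays were nearly identical and all lay below the differentiated ones. The difference of 0.69 ± 0.14 (SE, n = 3 per group, adjusted p = 0.00764) passed in all 17 other settings (adjusted p up to 0.0403) and was 0.68 with the array number start in the model. Plxnd1, the receptor of Sema3e, read 13.03, 13.11 and 12.82 against 13.62, 13.59 and 13.42, again without overlap. It differed by 0.55 ± 0.13 (adjusted p = 0.0174), by 0.72 with the array number start in the model (adjusted p = 0.00544), and did not pass without differentiated replicate 1 (0.0826) or 2 (0.0683). Plxnc1, the receptor of Sema7a, read 8.81, 8.71 and 8.74 against 9.42, 9.15 and 9.24, without overlap. Its difference of 0.52 ± 0.13 (adjusted p = 0.019) did not pass without undifferentiated replicate 2 (0.0816), without differentiated replicates 1 (0.0904) or 3 (0.0706), or after cyclic loess (0.0712).

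The class A plexins, which pair with neuropilins or bind class 6 semaphorins, did not pass. Plxna1 read 14.52, 14.62 and 14.25 against 14.80, 14.49 and 14.60 (difference 0.16, 95% interval -0.16 to 0.49). Plxna2 differed by 0.06, Plxna3 by -0.10 and Plxna4 by 0.22 (adjusted p from 0.226 to 0.793). Nrp1, the binding subunit for Sema3a and also a receptor of vascular endothelial growth factor, read 11.90, 11.78 and 11.39 against 11.70, 11.44 and 11.40. The groups overlapped, and the difference of -0.18 (95% interval -0.53 to 0.18, adjusted p = 0.451) turned to 0.12 with the array number start in the model. Nrp2, which binds Sema3c and Sema3f, read 7.91, 7.77 and 7.55 against 8.11, 7.94 and 7.89 (difference 0.24, 95% interval -0.07 to 0.55, adjusted p = 0.241). For these receptors other than Plxna4 the intervals exclude a change of 2-fold in either direction. Plxna4 read 6.76 to 6.99 in undifferentiated and 7.12 to 7.15 in differentiated cells. That is close to the random probes, which limits any measured fold, so its interval cannot exclude such a change.

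Ligands and their known receptors are set side by side here, from the same fit. Sema3e fell while its receptor gene Plxnd1 rose. Sema3c and Sema3f fell while Nrp2 differed by 0.24 without passing. Of the other receptor genes for Sema3c, Plxnd1 rose by 0.55 and Nrp1 differed by -0.18 without passing. Sema3a, Sema6a, Nrp1 and the class A plexins all did not pass. Slit2 fell and Slit3 rose while Robo1 and Robo2 did not pass. Unc5b rose while Ntn1, Neo1 and Dcc did not pass. Plxnb1 and Plxnc1 rose while their ligands Sema4d and Sema7a differed by 0.21 and 0.28 without passing, and Sema6d rose while Plxna1 differed by 0.16. Itgb1, the integrin subunit through which Sema7a also acts, differed by -0.07 (adjusted p = 0.742). Whether ligand and receptor differences differ from each other was not tested.

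**Figure D4:**
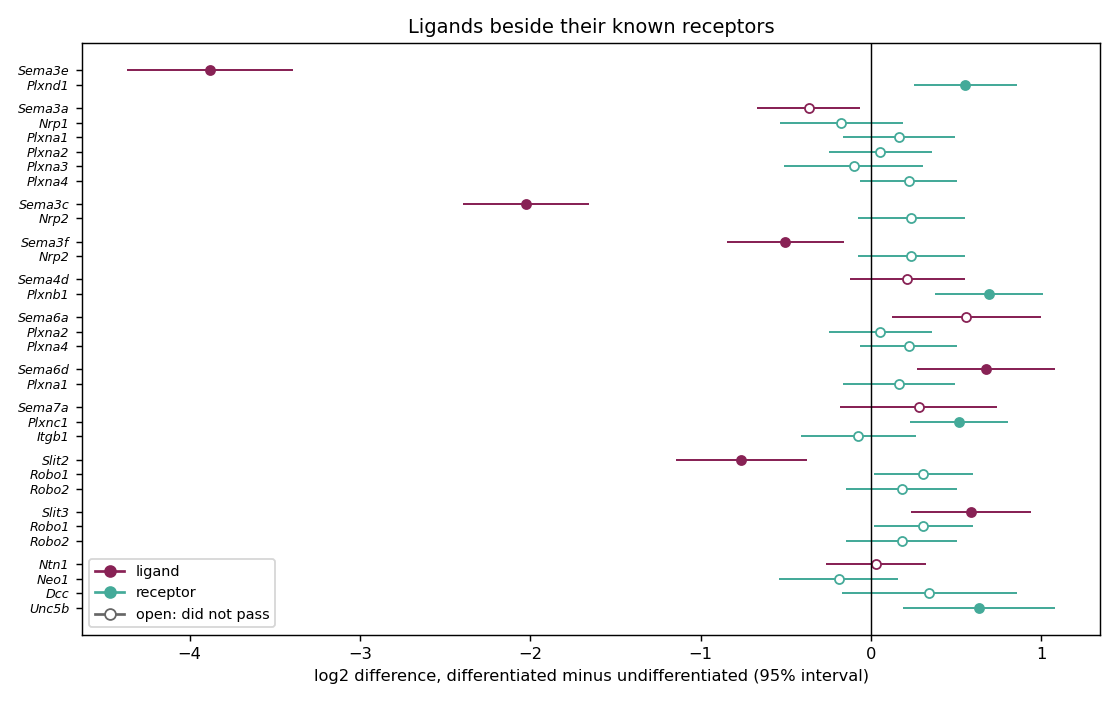
Log2 difference (differentiated minus undifferentiated, horizontal axis, with 95% interval) of ligand genes in purple, each above its known receptor genes in green, with filled points where the adjusted p was under 0.05. Sema3e and Plxnd1 lie on opposite sides of 0, and the receptors of Sema3a straddle it.

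Of the 3 slits, Slit2 fell, Slit3 rose and Slit1 did not pass. Slit2, a secreted repellent and inhibitor of cell migration, read 11.55, 11.16 and 11.80 in undifferentiated cells and 10.66, 10.90 and 10.66 in differentiated cells. The groups were apart, most clearly for undifferentiated replicate 3, which lay farthest from the differentiated arrays. The difference was -0.76 ± 0.17 (SE, n = 3 per group, adjusted p = 0.0126) and -1.06 with the array number start in the model, and it did not pass without differentiated replicate 1 (0.0719) or 3 (0.0597). Slit3, studied in mouse bone as a factor that favours bone formation, read 11.06, 11.35 and 11.64 against 11.91, 11.94 and 11.95. The differentiated arrays were nearly identical, and undifferentiated replicate 3 was nearest to them. The difference of 0.59 ± 0.16 (adjusted p = 0.0258) was 0.30 with the array number start in the model (adjusted p = 0.256). Leaving out any array other than undifferentiated replicate 3 ended the call (adjusted p from 0.0694 to 0.0937). Slit1 differed by 0.17 (adjusted p = 0.474).

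The Robo receptors of the slits did not pass. Robo1 read 8.35, 8.29 and 8.48 against 8.54, 8.75 and 8.74, without overlap (difference 0.31, 95% interval 0.02 to 0.59, adjusted p = 0.114), and Robo2 differed by 0.18 with overlapping groups (adjusted p = 0.392). Of the 2 netrins, Ntn4, a laminin-binding component of basement membranes, read 9.30, 9.43 and 9.53 against 10.15, 9.70 and 9.99. The groups did not overlap, and the difference of 0.52 ± 0.15 passed (adjusted p = 0.0328). It did not pass after cyclic loess (0.0532), with the array number start in the model (0.14), or without undifferentiated replicates 1 (0.0858) or 2 (0.104) or differentiated replicates 1 (0.143) or 3 (0.117). Ntn1, the classical axon attractant, read 9.92, 9.69 and 9.85 against 9.97, 9.75 and 9.82, with a difference of 0.03 (95% interval -0.26 to 0.31, adjusted p = 0.897).

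**Figure D5:**
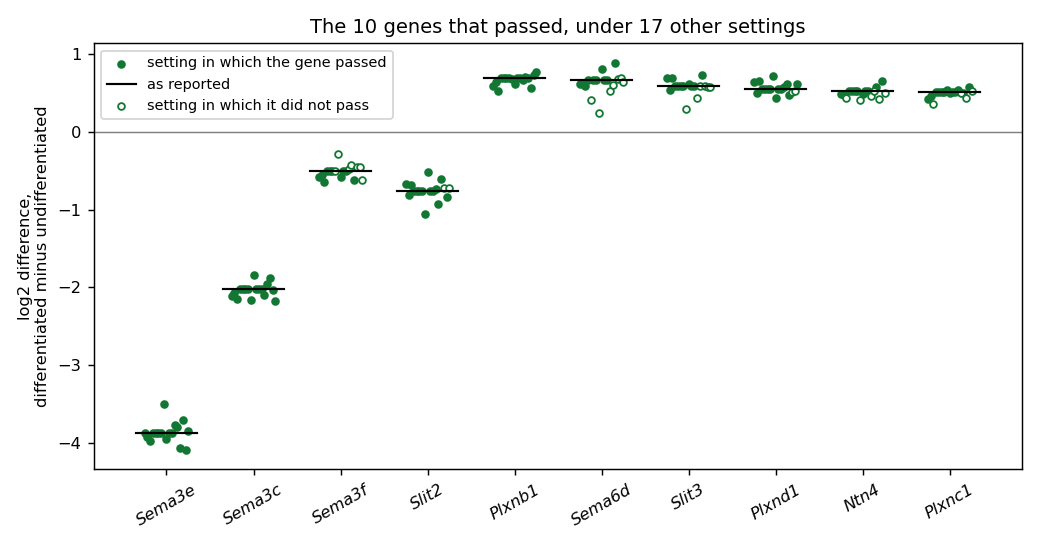
Log2 difference (differentiated minus undifferentiated, vertical axis) of the 10 genes that passed, as reported (black line) and under 17 other settings (points, filled where the gene passed at an adjusted p under 0.05). Sema3e, Sema3c and Plxnb1 passed in all 17, and no gene changed direction. The setting with the series-wide table holds the same values and repeats the reported fit.

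Among 50 measured co-receptors and intracellular effectors of semaphorin signalling, 4 rose, 9 fell and 37 did not pass, 26.0% called against 19.5% of all named genes. The median difference was -0.01, against 0.08 over all named genes. Rnd2, a small GTPase that binds plexins, rose by 1.35 on the log2 scale (adjusted p = 0.00243), from 11.19, 10.63 and 10.15 to 12.12, 11.89 and 12.01. Rock1, a kinase that acts on the actomyosin cytoskeleton, fell by 0.97 (adjusted p = 0.00182), from 11.89, 11.91 and 12.31 to 10.98, 11.22 and 11.00. For both genes the groups did not overlap, though the undifferentiated arrays of Rnd2 spread over more than the gap between its groups. The collapsin response mediator genes Dpysl3 and Dpysl2, whose products carry Sema3a signals to microtubules in neurons, fell by 0.89 (adjusted p = 0.00707) and 0.68 (adjusted p = 0.0049). Farp1, a guanine nucleotide exchange factor of the plexin-binding FARP family, fell by 0.71 (adjusted p = 0.00623). The MICAL monooxygenases, which disassemble actin next to plexins, were split, with Mical3 higher by 0.59 (adjusted p = 0.0165), Mical1 higher by 0.51 (adjusted p = 0.0174) while Mical2 fell by 0.58 (adjusted p = 0.028). The other members that fell were Pak1, Gsk3b, Met and Cdc42, and the other that rose was Tmem108.

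Of 30 measured netrin and slit partner genes, 5 rose, 1 fell and 24 did not pass, 20.0% called and so close to the 19.5% of all named genes. Ptk2, the focal adhesion kinase gene that transmits netrin signals, fell 3.26-fold (adjusted p = 0.000553), from 9.47, 9.30 and 8.67 to 7.08, 7.60 and 7.64. Rgma, a ligand of Neo1, rose by 0.80 (adjusted p = 0.0234), the netrin family genes Ntn3 by 0.71 (0.0181) and Ntng2 by 0.68 (0.00971), the adhesion receptor gene Dscam by 0.65 (0.0136) and the netrin receptor gene Unc5b by 0.63 (0.0491). Unc5b read 11.69, 11.48 and 10.83 against 11.95, 12.06 and 11.89, and Neo1 differed by -0.19 (adjusted p = 0.392) and Dcc by 0.34 (adjusted p = 0.303).

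Guidance genes are also used by neurons, endothelium and macrophages, so markers of those cells are given beside them. Of 7 neuronal markers 1 rose, Rbfox3, and the summed linear values of all 7 were 5255 to 6478 in undifferentiated and 7147 to 7425 in differentiated cells. Rbfox3, Syp and Tubb3 read 10.28 to 11.21 over all arrays, well above the random probes, and Nefl and Syt1 6.79 to 8.24. Snap25 lay near the random probes at 6.53 to 6.97, and Map2 lay at or below them on all arrays. Of 6 endothelial markers Tek and Pecam1 rose, with sums over all 6 of 1515 to 1788 and 2051 to 2208. Pecam1, Emcn and Kdr read 8.29 to 9.69, above the random probes on all arrays, and Tek 6.86 to 8.30. Tie1 lay near the random probes at 6.62 to 7.08, and the defining cadherin gene Cdh5 lay at or below them on all arrays. Of 6 macrophage and osteoclast markers 1 rose, Ctsk, and the sums were 15200 to 18686 and 36470 to 41160. These sums mostly restate Ctsk, which read 13.70 to 14.06 in undifferentiated and 15.08 to 15.26 in differentiated cells. The other markers read 7.45 to 9.83, above the random probes, and did not pass. Among them the leukocyte gene Ptprc read 8.54 to 8.80 on all arrays (difference 0.07, adjusted p = 0.709). Among 5 adipocyte markers 1 rose, Pparg (sums 2134 to 2170 and 2094 to 2434). The differences of 4 were positive, while Fabp4 differed by -0.54 with overlapping groups and did not pass (adjusted p = 0.0584). Among 5 chondrocyte markers Acan rose and Sox9 fell (sums 6283 to 7084 and 4794 to 5825). The chondrocyte sums mostly restate Sox9, which read 12.21 to 12.52 in undifferentiated and 11.71 to 12.04 in differentiated cells. The other chondrocyte markers read 6.58 to 9.97. The part of these markers in the guidance gene differences was not tested.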

How the data were processed

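RNA of 6 MC3T3-E1 cultures, 3 undifferentiated and 3 differentiated for 15 days, was measured on 1 NimbleGen array each, and groups were taken from the labelled cell line. Per feature the files hold a deposited intensity on a linear scale, and the submitters' processing notes name RMA, a method that combines background correction, normalization across arrays and a summary over probes. Version, settings and genome build were all not given in the sources used here. The series-wide table held the same values (largest difference 0).

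Log2 was taken with no further normalization. Features were named by RefSeq transcript (RefSeq genes of GRCm38.p6), which gave 17849 of 42586 features (41.9%) a single symbol and 17298 genes. For genes with several features the brightest was used. Differences, differentiated minus undifferentiated, came from limma 3.58.1 in R 4.3.3 (lmFit, then eBayes), with 2-sided p-values adjusted over all named genes by the Benjamini-Hochberg method and a threshold of 0.05. The fit was run on simulated data, with a pass condition only for differences of 3 log2 units, larger than those of most members. The precision is limited by 3 arrays per group.

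The members, lists and pairs were chosen with earlier results of these data known. Array values are given for members that passed and for 16 members fixed by name, and for others where they came close to the threshold. Replicate numbers are not known to pair the cultures, and the main comparison does not use them. The deviations of same-numbered arrays from their group means correlated at 0.01, 0.211 and 0.059. In the fit with the array number start (first 3 digits) in the model, undifferentiated replicate 3 is the undifferentiated array compared, and the other start holds undifferentiated arrays only.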

Additional observations from a re-analysis of the deposited data

How the results depend on the processing

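The comparison was repeated under 17 other settings. The series-wide table, counted among them, held the same values, so that setting repeats the reported fit and its outcome was fixed in advance. Filtering on the random probes, averaging a gene's features and testing all features leave the difference unchanged for genes with a single feature. For such genes these settings bear only on the adjusted p. Sema3e, Sema3c and Plxnb1 passed in all 17, Slit2 and Plxnd1 in 15, Plxnc1 in 13, Slit3 and Ntn4 in 11, and Sema3f and Sema6d in 10, and none of these 10 genes changed direction. Of the 35 guidance genes, 10 passed as reported, 12 after quantile normalization, 10 with equal array medians, 10 after cyclic loess and 11 with the replicate block. With the replicate block Sema3b and Sema6a passed and Sema3f did not, and no other member's call changed with it. With the array number start in the model 7 passed, with the lone undifferentiated array of that start assumed to vary like the others. Array weights gave 22 (15 higher, 7 lower), 39 of the effector and partner genes in place of 19 (21 higher, 18 lower), and 8432 of all named genes (4837 higher, 3595 lower). Testing all features gave 8365 (3396 higher, 4969 lower), since more features were tested.

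Leaving out 1 array at a time gave 3 to 21 guidance genes (1 to 15 higher, 2 to 6 lower), 7 to 36 effector and partner genes (2 to 19 higher, 5 to 17 lower) and 1354 to 7781 of all named genes (481 to 4288 higher, 873 to 3493 lower). The highest of the totals, 21, 36 and 7781, were without undifferentiated replicate 3 and the lowest, 3, 7 and 1354, without differentiated replicate 1. Guidance genes numbered 7 and 5 without undifferentiated replicates 1 and 2, and 6 and 4 without differentiated replicates 2 and 3.

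Members that did not pass changed sign under some settings. With the array number start in the model the log2 difference was 0.1223 for Nrp1, 0.3063 for Plxna3, -0.0155 for Sema3g, -0.1712 for Sema7a, -0.1591 for Slit1 and -0.0015 for Ntn1. Ntn1 was also -0.0015 after quantile normalization, -0.0244 with equal medians and -0.0416 after cyclic loess, and Sema6c was -0.0649, -0.0192 and -0.1257 there and -0.0036 with array weights, which gave 0.0209 for Sema4g. Without 1 array, Ntn1 ran from -0.0364 to 0.0764, Plxna2 from -0.0337 to 0.1118, Plxna3 from -0.3042 to 0.0839, Sema3d from -0.014 to 0.1733, Sema4g from -0.1567 to 0.0717 and Sema6c from -0.0489 to 0.0916. The cause of these changes was not tested. Signal over background limited Sema3d and Plxna4 on all arrays and Sema3c on differentiated arrays. It may also limit the fold of Sema3e, whose differentiated values were not far above the random probes.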
